A study of Mus musculus with 16 samples.

Results

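H3K27me3, the trimethylation of histone H3 at lysine 27, was compared between mouse embryonic stem cells (ESCs) kept in LIF and the same cells kept by an active Myc protein. The members are all peaks of the H3K27me3 lists of both cultures, of which 16717 are from Myc-ESCs. They make up 19837 of the 107863 peaks in the 6 lists of the series, which also cover H3K4me3 and Suz12. Both cultures are R1 mouse ESCs with a MycER transgene, a Myc protein with a stabilising point mutation fused to the part of the estrogen receptor that binds 4-hydroxytamoxifen (OHT), so that OHT switches Myc on. In the LIF-ESC culture the medium held 100 units per ml LIF and no OHT. In the Myc-ESC culture it held 50 nM OHT and no LIF. Both were grown without feeders in medium with serum. The number of MycER clones behind the libraries is not given in the sources used here. The labels name 2 H3K27me3 libraries for each culture, and both refer to a single peak list, so the spread between replicates is unknown and no test was run. An interval beside a share is the 95% Wilson interval. It takes account of counting error alone, as if peaks were independent. The depth of the libraries is unknown, and a deeper library gives a longer peak list. Most comparisons are also given for lists of equal length, all LIF-ESC peaks against as many Myc-ESC peaks, those with the highest scores. This evens the number of peaks but not the depth, because the score and the length of a peak also depend on depth. H3K4me3, a mark of active and poised promoters, had a peak at the start sites of 20 of 20 pluripotency genes in each culture. It also had one at 75 of 75 ribosomal protein genes. The share over all genes is not given, so these counts do not identify the cell type.

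H3K27me3 is laid down by Polycomb repressive complex 2 (PRC2), whose catalytic subunit is Ezh2 and of which Suz12 is a core subunit. PRC2 also binds the mark that it makes, through its subunit Eed, so that the mark can extend from a first site over neighbouring nucleosomes. In ESCs the mark is known for covering the start sites of developmental regulators that are kept silent but can be switched on, many of which also carry H3K4me3 and are called bivalent.

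The central 300 bp of some of the strongest peaks are shown here with each CpG dinucleotide in capitals and read from the plus strand of GRCm38. They are examples picked by score and do not stand for all peaks. The shared peak shown first was one of several tied at a score of 3100 in the Myc-ESC list, below 1 higher peak that was passed over because of its annotation. It lay on chromosome 13 between genes, in sequence that is mostly repeated on its chromosome. The highest-scoring peak of Myc-ESCs without an overlapping LIF-ESC peak also lay in a repeated array, on chromosome 8. A shared peak near Nkx2-3 and a Myc-ESC peak in an intron of Hoxaas2 in the HoxA cluster are therefore shown beside them. They are the highest-scoring peaks of their kind in domains outside repeated sequence, a choice made after the values were seen. Repeated sequence was judged over a whole domain, and the window near Nkx2-3 itself holds a stretch of simple repeats. The highest-scoring LIF-ESC peak without a Myc-ESC peak in lists of equal length lay in an intron of Gnao1, 356 bp from the start site of 4930488L21Rik. All Myc-ESC peaks together covered 531 bp of its domain, so it was not free of the mark in Myc-ESCs. Likewise, LIF-ESC peaks covered 13066 bp of the domain in the chromosome 8 array and 1384 bp of the domain of the Hoxaas2 peak. These domains were thus not free of the mark in LIF-ESCs.
Shared peak, repeated sequence, chr13:120026356-120026655: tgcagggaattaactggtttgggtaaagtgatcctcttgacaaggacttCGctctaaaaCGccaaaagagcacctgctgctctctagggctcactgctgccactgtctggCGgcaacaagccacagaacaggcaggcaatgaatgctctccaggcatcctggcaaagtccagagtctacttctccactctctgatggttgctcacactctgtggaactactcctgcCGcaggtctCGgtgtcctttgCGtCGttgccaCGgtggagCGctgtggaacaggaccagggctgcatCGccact
Shared peak near Nkx2-3, chr19:43608551-43608850: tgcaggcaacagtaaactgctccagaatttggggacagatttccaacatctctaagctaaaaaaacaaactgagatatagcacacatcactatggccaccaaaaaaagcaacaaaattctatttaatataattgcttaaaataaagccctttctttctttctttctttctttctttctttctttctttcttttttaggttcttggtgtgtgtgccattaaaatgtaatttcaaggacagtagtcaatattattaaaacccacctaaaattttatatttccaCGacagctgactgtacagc
Myc-ESC peak, repeated sequence, chr8:20522136-20522435: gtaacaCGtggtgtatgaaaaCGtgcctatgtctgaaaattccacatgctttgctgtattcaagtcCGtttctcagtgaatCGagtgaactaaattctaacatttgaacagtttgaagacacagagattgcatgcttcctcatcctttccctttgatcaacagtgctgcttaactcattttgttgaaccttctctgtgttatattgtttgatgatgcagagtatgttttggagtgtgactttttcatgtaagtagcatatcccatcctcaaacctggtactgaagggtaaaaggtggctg
Myc-ESC peak at HoxA, chr6:52166723-52167022: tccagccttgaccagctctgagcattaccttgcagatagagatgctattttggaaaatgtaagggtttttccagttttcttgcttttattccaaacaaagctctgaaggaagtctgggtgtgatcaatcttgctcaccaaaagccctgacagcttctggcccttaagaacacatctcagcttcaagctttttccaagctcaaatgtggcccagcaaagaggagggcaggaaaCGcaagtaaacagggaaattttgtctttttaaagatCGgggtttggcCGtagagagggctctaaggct
LIF-ESC peak, chr8:93814009-93814308: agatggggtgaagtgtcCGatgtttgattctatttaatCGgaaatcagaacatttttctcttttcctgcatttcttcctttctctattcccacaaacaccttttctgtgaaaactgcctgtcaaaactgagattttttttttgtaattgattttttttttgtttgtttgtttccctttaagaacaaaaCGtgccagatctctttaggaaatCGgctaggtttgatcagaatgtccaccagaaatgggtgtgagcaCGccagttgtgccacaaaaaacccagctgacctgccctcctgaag
The windows held 10, 1, 4, 3 and 5 CpG dinucleotides in this order. Over the central 300 bp of all peaks, the median was 1 CpG per 100 bp in both cultures. The RefSeq promoters of GRCm38 held 2.33 and windows side by side over the genome 0.667. Median GC content was 44.3% in LIF-ESC and 43.7% in Myc-ESC peaks, against 52.7% in promoters and 41.3% in the genome. The peaks thus lay nearer to the genome than to promoters in base composition. The letters CACGTG, the E-box that Myc and Max bind and a palindrome that reads the same on both strands, occurred in 2.76% (interval 2.24 to 3.39%) of LIF-ESC and 3.04% (interval 2.79 to 3.31%) of Myc-ESC windows. Of the promoters, which have the same length, 7.15% held it. Such a match is a description of the letters and not a binding site.

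In Myc-ESCs most H3K27me3 peaks stood beside others, whereas in LIF-ESCs nearly as many stood alone as in groups. Peaks of a list were joined into a domain when the gap between neighbours was under 3000 bp. The LIF-ESC peaks formed 1963 domains, of which 497 held 2 or more peaks, and the Myc-ESC peaks formed 5734, of which 2425 did. Domains of 2 or more peaks held 53.0% (interval 51.3 to 54.8%) of peaks for LIF-ESCs and 80.2% (interval 79.6 to 80.8%) for Myc-ESCs. With the Myc-ESC list of equal length the share was 73.9% (interval 72.4 to 75.5%). The median gap between neighbouring peaks on a chromosome was 12713 bp in LIF-ESCs, 836 bp in Myc-ESCs and 2074 bp in the Myc-ESC list of equal length.

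Lone peaks were a larger share in LIF-ESCs than in Myc-ESCs, and peaks in large domains a smaller one, as the plot of peaks by domain size shows. Peaks that stood alone made up 47.0% of the LIF-ESC list and 19.8% of the Myc-ESC list, and 26.1% with lists of equal length. Peaks in domains of 10 or more made up 10.1%, 34.5% and 18.7%, respectively. The LIF-ESC share of 10.1% came from 9 domains, and all but 1 of these lay in repeated sequence. Repeated sequence means here that at least 50% of the 50-base words of a domain occur more than once on its chromosome, on either strand, a limit set after the data were seen. Outside repeated sequence, domains of 10 or more peaks held 0.656% (interval 0.404 to 1.06%) of LIF-ESC peaks and 34.4% (interval 33.6 to 35.2%) of Myc-ESC peaks. With equal numbers of 2438 such peaks the Myc-ESC share was 11.4% (interval 10.2 to 12.8%). Both lists hold gaps that the caller did not join, and the peaks of a typical domain of 2 or more covered 32.5% of its span in LIF-ESCs against 33.1% in Myc-ESCs. Suz12 domains were filled to 74.9% and 80.2%.

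**Figure D1:**
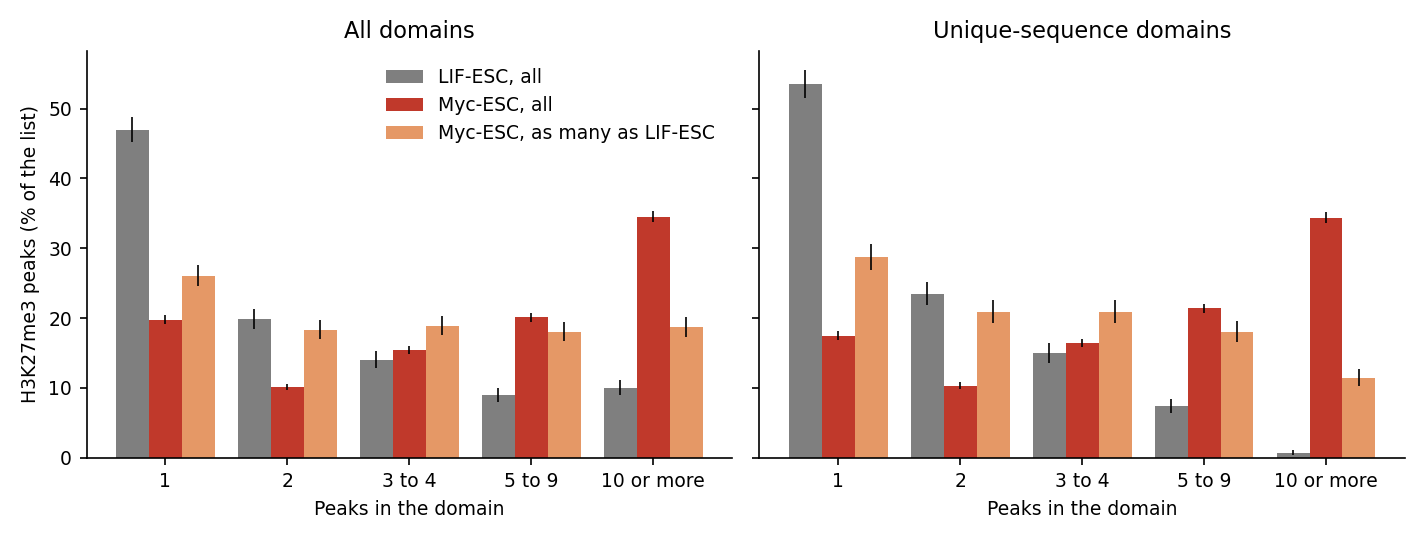
Share of the H3K27me3 peaks of each list (%, vertical axis) by the number of peaks in their domain (horizontal axis), for all domains on the left and for domains outside repeated sequence on the right. Bars give LIF-ESCs, Myc-ESCs and as many of the highest-scoring Myc-ESC peaks as LIF-ESCs have, with 95% Wilson intervals, and outside repeated sequence peaks in domains of 10 or more made up 0.656%, 34.4% and 11.4%.

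Myc-ESC domains were longer in most settings. The median span of domains of 2 or more peaks was 1623 bp in LIF-ESCs against 2342 bp in Myc-ESCs, and 2248 bp with lists of equal length. Domains of at least 10 kb numbered 14 in LIF-ESCs, 192 in Myc-ESCs and 38 in the list of equal length. Outside repeated sequence these numbers were 3, 158 and, with equal numbers of peaks, 19. The individual peaks were short in both cultures, with a median length of 157 bp and 162 bp over all peaks. The order of the median spans turned when only peaks with a score of at least 100 were kept, to 3763 bp in LIF-ESCs against 2109 bp in Myc-ESCs. It also turned with a gap of 10000 bp, to 4195 and 3778 bp. The score limit left 339 LIF-ESC peaks against 3378 Myc-ESC peaks, and under it the share of peaks in domains of 2 or more was 52.5% and 74.7%.

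Most of the strongest H3K27me3 domains of both lists lay in arrays of repeated sequence. By summed score, 9 of the 10 strongest LIF-ESC domains and 7 of the 10 strongest Myc-ESC domains were of this kind, and the other three of Myc-ESCs lay at HoxA, HoxC and Nr2f2. Among the 100 highest-scoring peaks, 86% (interval 77.9 to 91.5%) of LIF-ESC and 90% (interval 82.6 to 94.5%) of Myc-ESC peaks lay in them, against 19.7% and 12.7% of the rest. They held 39.6% of the bases under LIF-ESC peaks and 22.4% of those under Myc-ESC peaks. First in both lists was the cluster of 5S ribosomal RNA genes (Rn5s and the n-R5s genes, which encode the small RNA of the large ribosomal subunit). It spanned chr8:123537402-123623823 in LIF-ESCs, with 142 peaks over 41168 bp, and chr8:123537317-123625051 in Myc-ESCs, with 64 peaks over 82923 bp. Suz12 peaks covered 85237 bp of it in LIF-ESCs and H3K4me3 peaks 0 bp in either culture.

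The next domains also ranked alike in both lists. Where values of covered bases are paired, here and further on, LIF-ESCs come first and Myc-ESCs second. A domain at chr6:47737040-47778300, whose nearest start site was that of the small RNA gene Rny3, had 29463 bp under LIF-ESC and 33115 bp under Myc-ESC peaks. The neighbouring domain over the 4.5S RNA gene Rn4.5s, chr6:47651607-47687039, had 27853 bp and 31011 bp. A domain at chr13:120024888-120037770, 14434 bp from the start of Gm21188, had 10768 bp and 11885 bp. Myc-ESC peaks covered slightly more of each of these 3 domains. The array of predicted interferon genes with Ifnz, chr4:88771668-88807004, had 8768 bp in LIF-ESCs against 15241 bp in Myc-ESCs. The other strong LIF-ESC arrays lay at Gm4981 (7684 and 9651 bp), 68259 bp from Smgc (3454 and 3598 bp), at C130026I21Rik (10494 and 13339 bp) and 3476 bp from Tmem125 (1328 and 1533 bp). Myc-ESCs had in addition arrays on chromosome 8 far from curated start sites, the nearest at 177406 and 68850 bp. The first, chr8:20073122-20120026, had 1859 bp in LIF-ESCs against 32765 bp in Myc-ESCs, and the other, chr8:20493664-20543482, had 13066 bp and 39971 bp. Reads were kept only where they had a unique best location, and copy number in the input libraries and its part in these peaks were not tested.

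Among domains outside repeated sequence, a ranking added after the data were seen, 4 of the 10 strongest of Myc-ESCs lay in Hox clusters. First was the HoxA domain, chr6:52195246-52268060, which held start sites of Hoxa3, Hoxa5 to Hoxa11, Hoxa13 and Hottip. It held 22 peaks over 3931 bp in LIF-ESCs against 116 peaks over 31185 bp in Myc-ESCs, of which 17201 bp remained in the list of equal length. The HoxC domain over Hoxc5 to Hoxc10, chr15:102957642-103017146, went from 2701 to 25187 bp, and the HoxC domain over Hotair and Hoxc11 to Hoxc13 from 1584 to 19540 bp. Nr2f2, a nuclear receptor of mesoderm and vessels, lay in a domain at chr7:70320744-70372888 with 1476 bp in LIF-ESCs against 19827 bp in Myc-ESCs. The domain over Bmi1 (a PRC1 subunit), Commd3 and Spag6 went from 4208 to 17845 bp, that over start sites of Hoxd3 and Hoxd8 to Hoxd11 from 2085 to 16837 bp, and that over Hand2, a heart and limb regulator, from 3041 to 18070 bp. The imprinted gene Peg12 and the sequence beside it had 595 and 535 bp in LIF-ESCs against 15504 and 14467 bp in Myc-ESCs. The last of the 10, 107822 bp from the start of Pappa, went from 1246 to 13766 bp. In 10 of these 10 domains the covered bases were more than 4 times higher in Myc-ESCs, which the choice of strong Myc-ESC domains favours.

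LIF-ESCs had a different leading set outside repeated sequence, with smaller domains. Spag6, chr2:18686015-18698075, had 16 peaks over 2733 bp in LIF-ESCs against 7208 bp in Myc-ESCs. It was followed by Cdkn2a, the locus of the cell cycle inhibitors p16 and p19Arf, with 2052 and 2884 bp. Bmi1, which represses Cdkn2a as part of PRC1, had 1475 and 3736 bp, Dlx6 with Dlx6os1 1207 and 2860 bp, and the imprinted growth regulator Grb10 1385 and 1752 bp. A domain 87147 bp from Mir148a had 1285 and 4781 bp, and the domain at Sfta3-ps had 1082 and 5188 bp. Although these domains were picked for their strength in LIF-ESCs, 7 of the 10 had more bases in Myc-ESCs. The other three were those near Zfhx3 (1265 and 1161 bp), at Esrp1, a splicing factor of epithelial cells (1098 and 123 bp), and 13159 bp from Gm6313 (1216 and 127 bp). Suz12 peaks also covered fewer bases in Myc-ESCs at these 3 places, with 2367 and 1404 bp, 1832 and 92 bp, and 1783 and 0 bp. The rank of these domains depends on the measure, since only 2 of the 10 domains from LIF-ESCs, and 1 of the 10 from Myc-ESCs, were also among the 10 with the highest single peak. With covered bases as the measure these were 6 and 9 of the 10.

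Where the cultures shared a domain, the called peaks mostly covered more bases in Myc-ESCs. The longer Myc-ESC list favours this, since it covered 3.81 Mb in all against 0.690 Mb for LIF-ESCs. Domains were matched when they overlapped by at least 1 bp, and 1038 of 1963 LIF-ESC domains (52.9%, interval 50.7 to 55.1%) had a Myc-ESC domain. Of LIF-ESC domains of 2 or more peaks 88.7% (interval 85.7 to 91.2%) were matched, and of single peaks 40.7% (interval 38.2 to 43.3%). Joined where they chained together, the matched domains made 822 groups. Their median went from 1 peak to 5, from 288 to 1159 bp covered, and from 324 to 3933 bp in span. More bases were covered in Myc-ESCs in 765 groups and fewer in 55. With lists of equal length there were 468 groups, of which 415 had more and 53 fewer, with medians of 355 and 1028 bp. The lists of equal length hold the Myc-ESC peaks of highest score, which are longer (median 342 bp) and cover 1.50 Mb against 0.690 Mb in LIF-ESCs. In all, 138 Myc-ESC domains each joined several of 354 LIF-ESC domains, while 1 LIF-ESC domain was split. When the overlap had to reach 50% of both spans, 6.27% of LIF-ESC domains were matched.

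**Figure D2:**
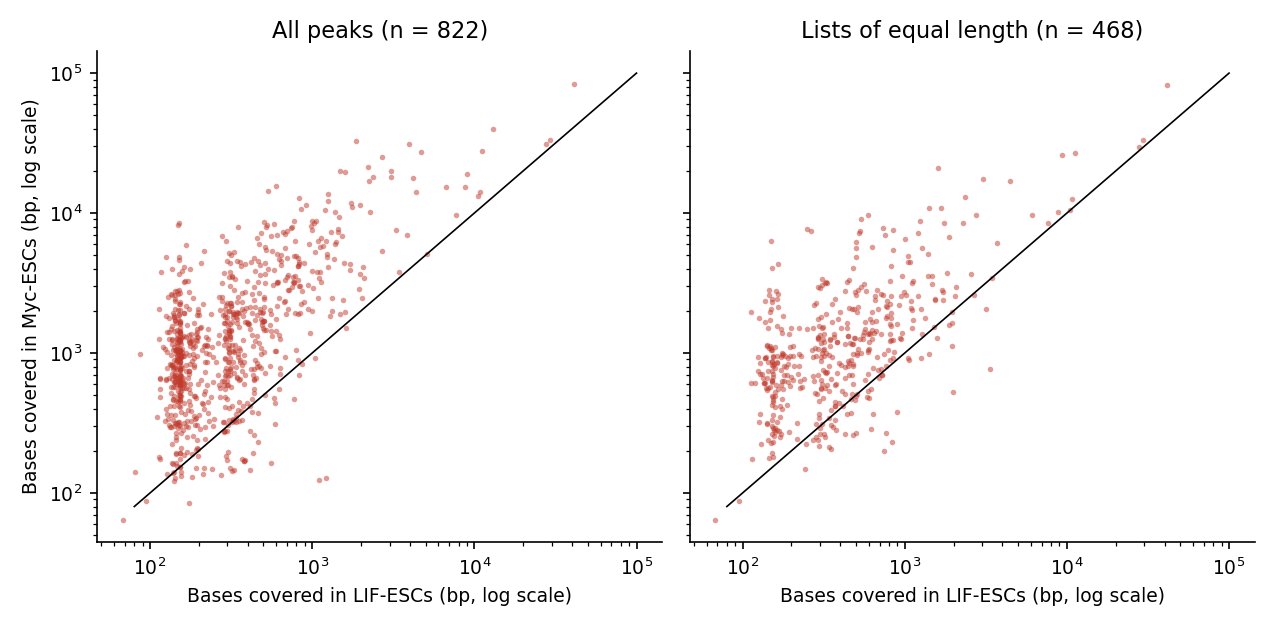
Bases covered by H3K27me3 peaks in LIF-ESCs (horizontal axis, bp, log scale) and Myc-ESCs (vertical axis, bp, log scale) in each matched group of domains, for all peaks on the left and lists of equal length on the right. Each point is a group and the line marks equal coverage. Of 822 groups 765 lay above the line with all peaks, and of 468 groups 415 with lists of equal length.

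The largest increases with lists of equal length were in repeated arrays, at the 5S cluster (41168 to 81767 bp) and 4 arrays near 20 Mb of chromosome 8, of which the first went from 1608 to 21073 bp. Outside repeated sequence they were at HoxC (1403 to 10896 bp), Peg12 (595 to 9759 bp) and its neighbour (535 to 9055 bp), the domain 115523 bp from Pappa (1246 to 8806 bp) and Spag6 (2733 to 9761 bp). The largest decreases were smaller. Arrays near Atg7 went from 3372 to 771 bp and from 1996 to 529 bp, that near Speer4d from 3176 to 2049 bp, and that near Gm21083 from 1944 to 1122 bp. At Nrp2, a receptor for semaphorins and vascular growth factors, the value went from 831 to 230 bp. With all Myc-ESC peaks the first array near Atg7 had more bases than in LIF-ESCs (4407 bp), and the other four places still had fewer, with 702 bp at Nrp2. Outside repeated sequence the next decreases were at 2 domains near Zfhx3 (767 to 267 bp and 1265 to 928 bp), at Col2a1, a cartilage collagen (620 to 286 bp), and at Phox2a, a regulator of autonomic neurons (633 to 367 bp). With all Myc-ESC peaks Col2a1 (881 bp) and the matched group of the larger Zfhx3 domain (1619 bp) had more than in LIF-ESCs. This Zfhx3 group reaches beyond the LIF-ESC domain. Within that domain alone all Myc-ESC peaks covered 1161 bp, fewer than the 1265 bp in LIF-ESCs.

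Some domains were found in a single culture. The strongest Myc-ESC domains without any LIF-ESC peak lay over Zfp9 (35 peaks, 7755 bp), over Zc3hav1l (25 peaks, 6593 bp), 114435 bp from Gpr63 (23 peaks, 5084 bp), over Lhx9, a LIM-homeobox regulator of gonad and brain (21 peaks, 4448 bp), and in an array near Gm21119 (5 peaks, 3468 bp). Suz12 at these places differed. At Lhx9 it covered 10145 bp in LIF-ESCs against 10752 bp in Myc-ESCs, so a Suz12 domain was called there in both cultures. At Zfp9 it covered 1545 and 9406 bp, and at Zc3hav1l 218 and 9270 bp. The strongest LIF-ESC domains without a Myc-ESC peak were smaller and lay away from start sites. They were 337247 bp from Gtdc1 (4 peaks, 977 bp), 20835 bp from Cdkn1c, an imprinted cell cycle inhibitor (4 peaks, 906 bp), 8186 bp from Hoxb1 (4 peaks, 791 bp), 38148 bp from Otx2os1 (5 peaks, 790 bp) and 3241 bp from Sp8 (4 peaks, 717 bp). Suz12 covered more in LIF-ESCs than in Myc-ESCs in all 5, for example 4642 and 189 bp near Otx2os1 and 1946 and 993 bp near Hoxb1.

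High-scoring peaks were shared most often, when each list was divided into 5 classes by score. Of the highest class of LIF-ESC peaks, 77.7% (interval 74.3 to 80.8%) overlapped a Myc-ESC peak, and of the lowest class 45.2% (interval 41.3 to 49.1%). Outside repeated sequence these were 59.3% and 42.6%. Of the Myc-ESC peaks, 24.5% (interval 23.0 to 26.0%) of the highest class overlapped a LIF-ESC peak and 3.47% (interval 2.90 to 4.14%) of the lowest. Within 1000 bp, 68.8% of the lowest LIF-ESC class had a Myc-ESC peak. The Myc-ESC list is the longer one, which limits how much of it can be shared.

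The distance of the peaks to start sites was broadly similar in both cultures, but some shares differed by more than their intervals. Within 1000 bp lay 18.5% (interval 17.2 to 19.9%) of LIF-ESC and 15.3% (interval 14.7 to 15.8%) of Myc-ESC peaks, and 16.7% with equal length. The median distance from a peak to the nearest curated RefSeq start site was 3296 bp in LIF-ESCs, 3538 bp in Myc-ESCs and 3193 bp in the list of equal length. Within 2500 bp of a start site lay 43.8% (interval 42.0 to 45.5%), 41.7% (interval 41.0 to 42.4%) and 43.8% of the peaks, where 4.73% of the genome lies. Beyond 50 kb lay 14.4%, 16.3% and 13.5%. Few peaks covered a start site itself, 0.833% (interval 0.569 to 1.22%) in LIF-ESCs, 0.640% (interval 0.530 to 0.773%) in Myc-ESCs and 1.76% (interval 1.36 to 2.29%) in the list of equal length. Peak midpoints were less frequent right beside the start site than farther out on both sides, and most frequent 1000 to 1500 bp downstream of it. The 500 bp downstream of the start site held 2.76% of LIF-ESC, 1.87% of Myc-ESC and 1.38% of the highest-scoring Myc-ESC peaks, and the bin from 1000 to 1500 bp held 5.83%, 6.41% and 6.15%. Of peaks with midpoints within 10 kb, 55.8% (interval 53.7 to 58.0%) and 57.5% (interval 56.6 to 58.4%) lay downstream. Between genes lay 45.9% and 45.2% of the peaks, and in introns more than 1000 bp from a start site 30.5% and 35.4%.

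**Figure D3:**
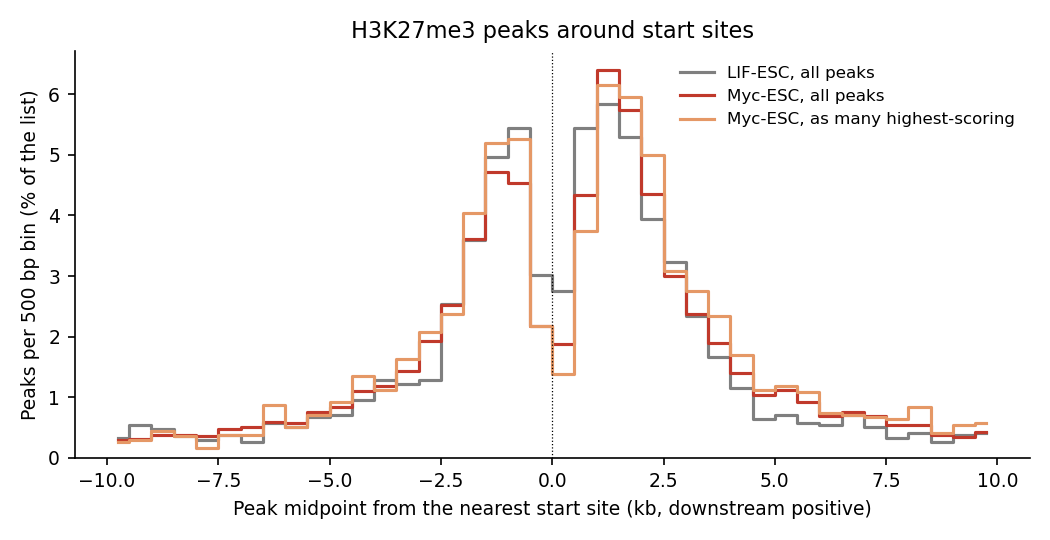
Share of H3K27me3 peaks (%, vertical axis) in bins of 500 bp by the distance of the peak midpoint from the nearest start site (kb, horizontal axis, downstream positive), for both lists and for as many of the highest-scoring Myc-ESC peaks as LIF-ESCs have. All 3 lines dip at the start site, to 2.76%, 1.87% and 1.38% in the first bin downstream, and are highest from 1000 to 1500 bp downstream.

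Peaks in large domains had a Suz12 peak nearby in a higher share than peaks that stood alone. A Suz12 peak of the same culture was within 1000 bp of 66.5% (interval 64.9 to 68.2%) of LIF-ESC and 69.1% (interval 68.4 to 69.8%) of Myc-ESC H3K27me3 peaks. Among single peaks the share was 48.6% (interval 46.0 to 51.1%) in LIF-ESCs against 26.4% (interval 24.9 to 27.9%) in Myc-ESCs. In domains of 10 or more it was 94.6% and 89.0%, where the LIF-ESC value rests on 9 domains and 142 of its 314 peaks lie in the 5S cluster. Of the Myc-ESC single peaks, 58.4% had neither Suz12 nor H3K4me3 nearby, against 35.3% in LIF-ESCs. In the Myc-ESC list of equal length, single peaks had Suz12 nearby in 81.4% (interval 78.6 to 84.0%) and peaks in domains of 10 or more in 92.3% (interval 89.8 to 94.2%). The first share is above that of LIF-ESCs. This list keeps only high-scoring peaks, and its domains were formed anew. A single peak in it can thus have lower-scoring neighbours in the full list, so its single peaks cannot be set against those of LIF-ESCs. H3K4me3 was within 1000 bp of 50.1% of LIF-ESC and 54.1% of Myc-ESC peaks. In Myc-ESCs it was near 70.8% of peaks in domains of 3 to 4 and 44.9% of peaks in domains of 10 or more.

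At the level of genes, marking was read from any peak that reached within 2500 bp of a curated start site. Neighbouring genes can share a peak in this count. Of 26180 genes, 1000 (3.82%) were marked in LIF-ESCs, 2811 (10.7%) in Myc-ESCs and 925 (3.53%) by the Myc-ESC list of equal length. Both cultures marked 808 genes, LIF-ESCs alone 192 and Myc-ESCs alone 2003. In the 808 common genes the median of covered bases was 174 bp in LIF-ESCs against 805 bp in Myc-ESCs, with more in Myc-ESCs at 719 and fewer at 88. The call rested on a single peak for 70.3% of the genes marked in LIF-ESCs, for 38.0% in Myc-ESCs and for 56.2% in the list of equal length. Lists of equal length thus marked similar numbers of genes, with 467 in common, 533 marked by LIF-ESC peaks alone and 458 by Myc-ESC peaks alone.

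The gene groups below are read against those shares over all genes, and the median gene of all 26180 had 0 bp in either culture. Among the Hox genes, which pattern the body axis, 25 of 39 were marked in LIF-ESCs, 39 in Myc-ESCs and 37 in the list of equal length. Their median coverage of the start-site window was 156 bp in LIF-ESCs against 1695 bp in Myc-ESCs, and 39 of 39 had more in Myc-ESCs. Over all genes, 2722 had more in Myc-ESCs and 280 more in LIF-ESCs. The widest coverage in Myc-ESCs was at Hoxd8 (204 and 3412 bp), Hoxd11 (625 and 3314 bp), Hoxa10 (593 and 3231 bp) and Hoxd10 (450 and 3125 bp). Genes with several start sites have longer windows, which favours them in any ranking by bases. Over whole clusters, from the first to the last Hox gene, LIF-ESC peaks covered 4.32% of HoxA, 1.94% of HoxB, 3.87% of HoxC and 5.18% of HoxD. Myc-ESC peaks covered 37.5%, 13.3%, 36.2% and 36.6%, and those of the list of equal length 21.0%, 5.20%, 20.9% and 22.4%. HoxB was the least covered in each list. Suz12 covered 67.3% of HoxA and 40.6% of HoxB already in LIF-ESCs, and 85.9% and 53.7% in Myc-ESCs.

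**Figure D4:**
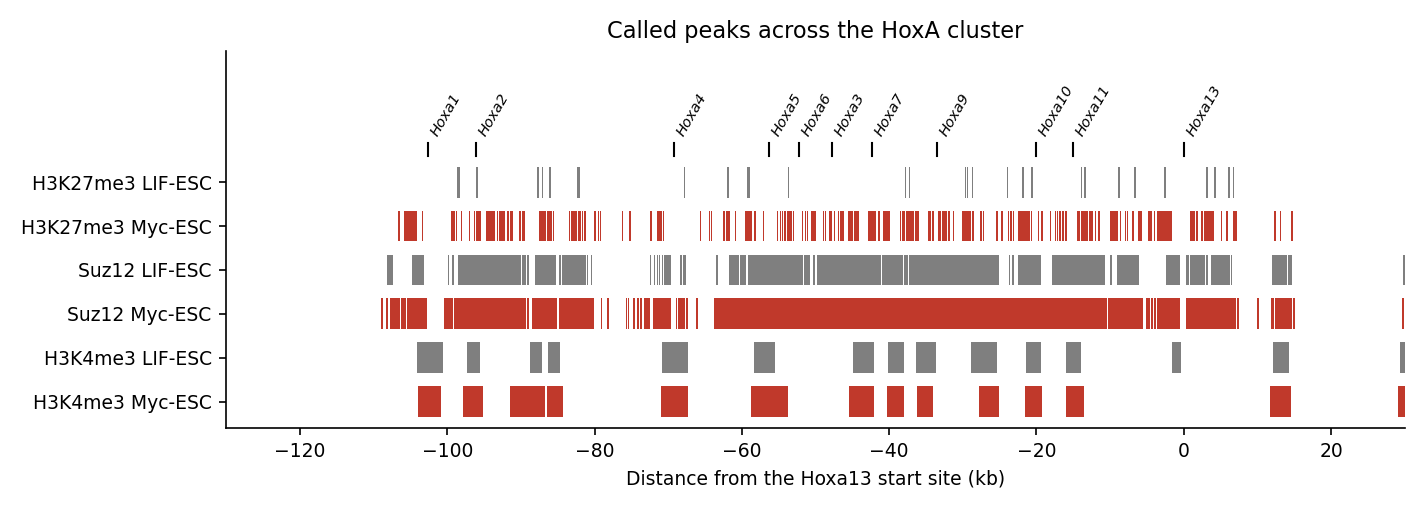
Called peaks across the HoxA cluster by distance from the Hoxa13 start site (kb, horizontal axis), with a row for each antibody and culture (grey, LIF-ESCs, and red, Myc-ESCs). Boxes are peaks to scale, ticks mark the Hoxa genes at the curated start site nearest to Hoxa13, and H3K27me3 peaks are sparse in LIF-ESCs (4.32% of the cluster) and dense in Myc-ESCs (37.5%).

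Other homeobox families and the Pax genes had the same order, and members without any LIF-ESC peak, such as Lhx9 and Nkx1-1, were among the most widely covered in Myc-ESCs. Of the LIM-homeobox genes, neural and limb regulators, 7 of 12 were marked in LIF-ESCs against 12 in Myc-ESCs, with 8 in the list of equal length. Lhx2 had 937 and 3665 bp, Lhx9 0 and 2905 bp, Lhx4 659 and 1729 bp, and Lhx6 213 and 1724 bp. Of the Nkx genes of neural tube, heart and gut, 6 of 14 and 13 were marked, and 8 with equal length, led by Nkx1-1 (0 and 2010 bp), Nkx2-4 (0 and 1922 bp), Nkx2-1 (144 and 1285 bp) and Nkx2-6 (146 and 1241 bp). Nkx6-3 was marked in LIF-ESCs only, with 137 bp. Of the Pax genes 5 of 9 and 8 were marked, and 6 with equal length. The highest were Pax2 (214 and 2410 bp), Pax6, the eye and forebrain regulator (192 and 2307 bp), Pax1 (0 and 1605 bp) and Pax3 (154 and 1390 bp). Of the Dlx, Six-family and Irx genes 7 of 18 and 16 were marked, and 9 with equal length. Dlx5 (0 and 1527 bp), Dlx6 (361 and 1398 bp), Six3 (0 and 1347 bp) and Dlx1 (162 and 1098 bp) had the most, and Dlx3 had slightly less in Myc-ESCs (198 and 184 bp).

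Regulators of the germ layers followed. Some members with wide coverage in Myc-ESCs, such as Foxe1 and Sox21, had no LIF-ESC peak, although over all genes those marked in Myc-ESCs alone had a median of 290 bp, below the 805 bp of genes marked in both. Of the forkhead genes 6 of 23 were marked in LIF-ESCs against 20 in Myc-ESCs, and 14 in the list of equal length. They were led by Foxc2 (148 and 1742 bp), Foxe1 (0 and 1573 bp), Foxd1 (0 and 1517 bp) and Foxf1 (346 and 1482 bp). Of the Sox genes other than Sox2, 4 of 13 and 9 were marked, and 7 with equal length. Sox6 had 152 and 2546 bp, the endoderm regulator Sox17 368 and 2055 bp, Sox1 327 and 1603 bp, and Sox21 0 and 1459 bp. Of the Gata and T-box genes 9 of 21 and 16 were marked, and 10 with equal length, with most bases at Tbx2 (156 and 1500 bp), Gata4 (582 and 1431 bp), Gata3 (0 and 1356 bp) and Tbx15 (278 and 1215 bp). Of the proneural and related bHLH genes 8 of 20 and 13 were marked, and 8 again with equal length. Tal1, a blood regulator, had 708 and 2041 bp, Ptf1a 338 and 1605 bp, Atoh1 725 and 1584 bp, and Ascl2 114 and 900 bp. Neurog3 was marked in LIF-ESCs only (270 bp).

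Of the signalling genes, the Wnt ligands had shares near those of the Dlx, Six-family and Irx genes, and the receptors and antagonists had lower ones. Of the Wnt ligands 7 of 19 were marked in LIF-ESCs, 16 in Myc-ESCs and 8 with equal length. Wnt11 had 142 and 1705 bp, Wnt5a 0 and 1630 bp, Wnt9b 238 and 1630 bp, and Wnt7b 316 and 1316 bp, while Wnt3 (340 and 320 bp) and Wnt2b (180 and 162 bp) had slightly less in Myc-ESCs. Of the Frizzled receptors 2 of 10 and 6 were marked, and 1 with equal length, the most being 641 bp at Fzd10 (0 bp in LIF-ESCs). After it came Fzd1 (137 and 513 bp), Fzd4 (0 and 449 bp) and Fzd3 (0 and 445 bp), and Fzd7 had no peak in either culture. Of the Wnt antagonists 5 of 25 and 11 were marked, and 3 with equal length. Frzb, a secreted inhibitor, had 0 and 1512 bp, Shisa3 312 and 1259 bp, Nkd1 361 and 890 bp, and Dkk1 141 and 770 bp. Sfrp1 (0 and 382 bp) and Sfrp5 (0 and 336 bp) had 2 Myc-ESC peaks each, none of them in the list of equal length. Dkk1 and Fzd1 were thus marked in both cultures, Sfrp1 and Sfrp5 in Myc-ESCs alone, and Fzd7 and the antagonist Apcdd1 in neither. Sfrp2 (178 and 150 bp) and Znrf3 (155 and 152 bp) had slightly less in Myc-ESCs. Of the Bmp, Fgf and Hedgehog ligands 6 of 34 and 15 were marked, and 8 with equal length, led by Fgf8 (144 and 1642 bp), Shh (306 and 1490 bp), Fgf9 (0 and 1266 bp) and Fgf12 (0 and 918 bp). Fgf5, a marker of the primed epiblast, was marked in LIF-ESCs only (123 bp).

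In the lists of genes that ESCs use, most members had no peak of the mark. The share of Polycomb genes marked still stood above that over all genes throughout. It was 18.5% in LIF-ESCs, 29.6% in Myc-ESCs and 18.5% with equal length, against 3.82%, 10.7% and 3.53%. The share of pluripotency genes was 30.0% in Myc-ESCs and 5% both in LIF-ESCs and with equal length. Of the Socs and Cish genes, feedback inhibitors of Jak/Stat signalling, 0 of 8 were marked in LIF-ESCs against 1 in Myc-ESCs, Socs7 with 158 bp. Socs3 had no called H3K27me3 peak in either culture, while Suz12 peaks covered 0 and 2604 bp of its start-site window. The authors report a gain of H3K27me3 at Socs3 in Myc-ESCs, and the lack of a called peak does not show that the mark was absent. Of the pluripotency genes 1 of 20 was marked in LIF-ESCs against 6 in Myc-ESCs, and 1 with equal length. Esrrb had 0 and 691 bp, Tbx3 0 and 452 bp and Prdm14 0 and 440 bp, while Dppa3 had 496 bp in LIF-ESCs against 150 bp in Myc-ESCs. Pou5f1, Sox2 and Nanog had 0 bp in both. Of the Polycomb subunits 5 of 27 and 8 were marked, and 5 with equal length. Among them Bmi1 had 915 and 2606 bp, Cbx8 223 and 1323 bp and Cbx2 312 and 749 bp, all of PRC1, and Ezh2, Eed and Suz12 had 0 bp. Of the ribosomal protein genes 0 of 75 were marked in either culture. With lists of equal length the order of the cultures turned for the Frizzled genes (2 of 10 in LIF-ESCs against 1 in Myc-ESCs) and the Wnt antagonists (5 of 25 against 3), by few genes and with no test. Over all genes the order turned as well, with 3.82% in LIF-ESCs against 3.53% in Myc-ESCs.

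**Figure D5:**
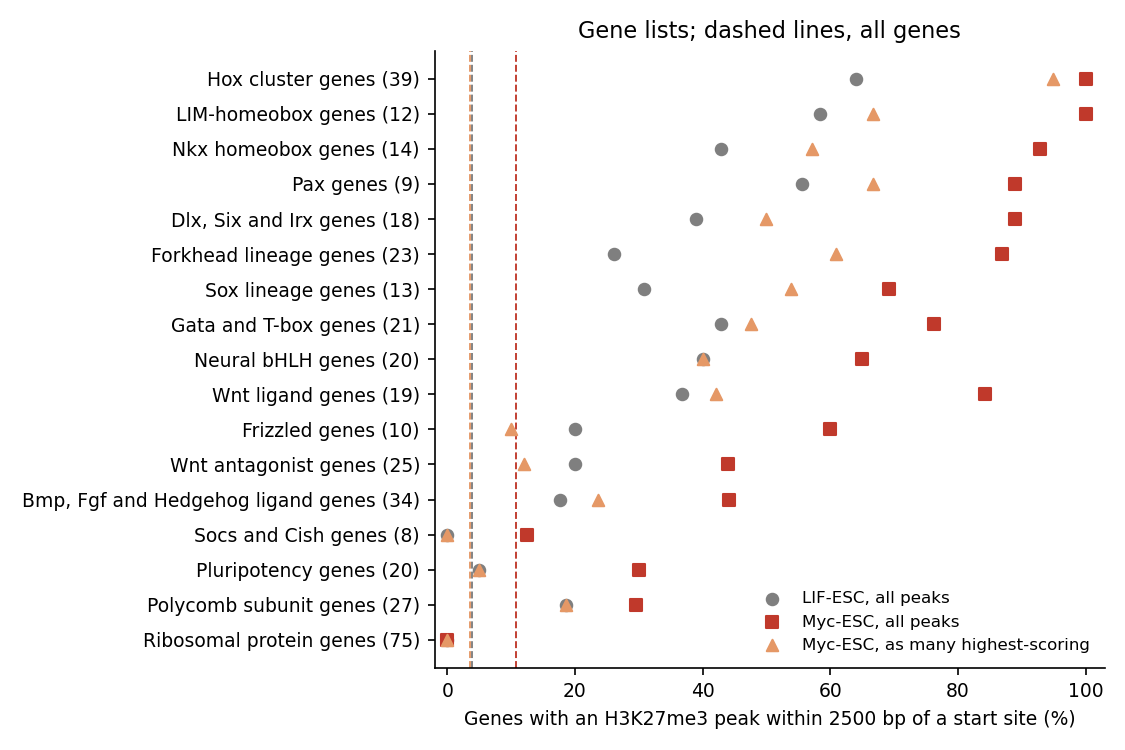
Share of the genes of each list (%, horizontal axis) with an H3K27me3 peak within 2500 bp of a start site, for LIF-ESCs (circles), Myc-ESCs (squares) and the Myc-ESC list of equal length (triangles), with the number of genes in parentheses and dashed lines at the shares over all genes (3.82%, 10.7% and 3.53%). The Hox genes reach 64.1%, 100% and 94.9%, and the ribosomal protein genes 0% in each.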

How the data were processed

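ChIP-sequencing of H3K27me3, H3K4me3 and Suz12 was done on LIF-ESCs and Myc-ESCs in 16 libraries of which 4 are inputs and 4 are H3K27me3. Reads were aligned to GRCm38 (mm10). The submitters' processing notes name Bowtie2 2.2.3 and MACS 1.4.2. The authors kept reads with a unique best match and called peaks against background. They deposited 6 lists of peaks, 1 for each culture and antibody, with a score per peak that MACS defines as -10 times the log10 of the p-value. The score depends on depth and was used here only to rank or filter peaks. How both libraries were combined into a list is not given in the sources used here, the lists hold no read counts, and no paired analysis was possible because no list exists per replicate.

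Intervals were compared with Python 3.11.15, numpy 2.4.6 and pandas 2.3.3, sequences were read with pysam 0.24.0, intervals of shares came from scipy 1.17.1 and figures from matplotlib 3.10.9. The code was tested on simulated data, in which 2000 of 2000 domains were recovered. The 45756 curated RefSeq transcripts of 26180 symbols gave the start sites. The LIF-ESC list held 3120 H3K27me3 peaks and the Myc-ESC list 16717, and the Myc-ESC list of equal length held the 3120 with the highest scores. It reached down to a score of 103.8, at which 7 peaks were tied, and ties were broken by position. Domain strength was the summed score. The genes named are those under the 10 strongest domains of each list, the 5 largest increases and decreases, the 5 strongest domains of a single culture, in each of 17 gene lists the 4 members with the most bases in Myc-ESCs and any with more in LIF-ESCs, and Sfrp1, Sfrp5, Dkk1, Socs3, Sox17 and Fzd7. A gene that this rule names is not reported here. Pou5f1, Sox2, Nanog, Ezh2, Eed, Suz12 and Apcdd1 were named after their values were seen. A gene lay under a domain with a start site within 2500 bp. Members, gene lists and rules were chosen with earlier results of these data known. The separation of repeated sequence and the omission of chromosome 8 were added after the data were examined. Expression, Myc binding and read densities were not analysed here.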

Additional observations from a re-analysis of the deposited data

How the results depend on the processing

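In 88 alternatives to 16 values, 30 moved by less than their interval (for counts of genes or domains, by less than 1.5 times) and 58 moved by more. In each pair of lists, the share of peaks in domains of 2 or more stayed higher in Myc-ESCs. Values are given for LIF-ESCs, all Myc-ESC peaks and the Myc-ESC list of equal length, in this order. With gaps of 1000, 5000 and 10000 bp the share of peaks in domains of 2 or more was 41.0, 70.8 and 61.5%, then 59.6, 83.0 and 79.1%, then 64.0, 84.8 and 81.6%, and the median span was 875, 1146 and 1335 bp, then 2645, 3222 and 3341 bp, then 4195, 3778 and 3927 bp, so that at 10000 bp the order of the spans turned. At a score of at least 100 the share was 74.7% in Myc-ESCs and the span 3763 and 2109 bp. With the 1000 highest-scoring peaks of each list the shares were 46.6 and 62.9% and the Myc-ESC span 2909 bp. Without repeated sequence the shares were 46.5, 82.5 and 71.3%, and without chromosome 8 they were 50.5, 79.6 and 71.3%.

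The share of LIF-ESC domains matched was 49.6% with a gap of 1000 bp, 64.7% at a score of at least 100, and 6.27% with all peaks and 6.57% with equal length when 50% of both spans had to overlap. It was 23.8% with equal length outside repeated sequence. Within 1000 bp of a start site lay 18.5, 15.3 and 16.7% of peaks, within 5000 bp 57.6, 56.8 and 60.3%, and with GENCODE start sites 51.5, 48.7 and 51.4%. By midpoints the share was 40.3% in Myc-ESCs and 41.3% with equal length. At a score of at least 100 it was 45.7 and 44.0%, without repeated sequence 47.1, 46.0 and 48.7%, and without chromosome 8 42.7% in Myc-ESCs and 46.2% with equal length. A window of 1000 bp marked 456, 1624 and 441 genes, and a score of at least 100 left 120 and 977 genes. The causes were not tested beyond what each setting changes by construction. No paired analysis was possible because no list exists per replicate. Depth is unknown, so a domain missing from the shorter LIF-ESC list cannot be called free of the mark.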

Other observations

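Peaks were spread unevenly over the chromosomes in both cultures. Chromosome 8, which holds the 5S cluster and the arrays near 20 Mb, had 4.13 LIF-ESC and 12.8 Myc-ESC peaks per Mb. Of its 534 LIF-ESC peaks, 301 lay outside repeated sequence, and the reason for their number was not tested. Chromosome 2 with HoxD, Bmi1 and Spag6 had 1.70 and 9.62 per Mb. Chromosome 16 had 0.132 and 2.35 per Mb, and the X chromosome 0.129 and 1.46. With lists of equal length chromosome 8 had 3.90 and chromosome 16 0.163 Myc-ESC peaks per Mb. The labels describe 1 of the inputs of LIF-ESCs as chromatin taken through the procedure without antibody and the other inputs as genomic DNA, and which of them entered the peak calls is not given in the sources used here.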
